A study of Homo sapiens with 12 samples.

Results

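The 7SK snRNP and the kinase it holds, P-TEFb, were followed through 8 genes: the 7SK RNA, HEXIM1, HEXIM2, LARP7, MEPCE, CDK9, CCNT1 and CCNT2. The genes were chosen by name for their place in this complex, with test results of these same libraries already known, out of 63677 identifiers in the count tables. Their levels and fold changes are therefore a description of these libraries, and an adjusted p over all genes is not independent evidence for the choice. All 8 were found and all 8 were among the 17123 genes tested. The RNA-seq was made in MiaPaca2, an established human pancreatic ductal adenocarcinoma (PDAC) cell line of wild-type label, and asked how epigenetic priming alters the response to a Vitamin D analogue. Unprimed control cells (Con) received DMSO, and CPT cells received 1 µM calcipotriol (CPT), the Vitamin D analogue. GTA+5-Aza cells were primed with 2 mM glyceryl triacetate (GTA), an acetate donor, and 1 µM 5-Aza-2′-deoxycytidine (5-Aza), an inhibitor of DNA methylation. CPT+GTA+5-Aza cells received all the agents at these doses. Each group had 3 libraries after 24 h. GTA+5-Aza set against Con is called priming without CPT here, and CPT+GTA+5-Aza set against CPT is called priming under CPT. GTA and 5-Aza were never given apart, so their effects cannot be told apart here, and all results come from 1 cell line.

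RNA polymerase II pauses shortly after it starts on most genes, and P-TEFb, a kinase made of CDK9 and cyclin T1 or cyclin T2, phosphorylates the pausing factors and the polymerase to release it. The 7SK snRNP stores P-TEFb in an inactive form: the 7SK RNA is a scaffold, HEXIM1 or HEXIM2 blocks the kinase, LARP7 holds the end of the RNA and MEPCE caps its start. HEXIM1 is also known as a gene induced by hexamethylene bisacetamide, a differentiation-inducing compound that frees P-TEFb.

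Of the 8 members, the 7SK RNA moved furthest. Its level, counted under ENSG00000202198 alone, was 5.12-fold lower with priming without CPT and passed the test there. It was 3.79-fold lower with priming under CPT, where it did not pass. The mRNAs of the 7 protein members stayed between -0.18 and 0.19 in log2 fold change in the first of these comparisons, and none passed. In the second, only CCNT2 passed, with a log2 fold change of -0.28. No member passed in the response to CPT, in unprimed or in primed cells.

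Parts of the 7SK RNA that its protein partners use are shown first, because the results turn on this RNA. The gene (ENSG00000202198) lies on chromosome 6 of GRCh38, plus strand, from 52995620 to 52995950, and GENCODE v44 annotates 1 exon of 331 bases there as a miscellaneous RNA. The first 100 bases hold the 5′ hairpin that HEXIM proteins bind through GAUC repeats, written here as GATC and set in capitals. The last 50 bases hold the U-rich end that LARP7 binds, with its terminal T run in capitals.
7SK bases 1 to 100, chr6:52995620-52995719: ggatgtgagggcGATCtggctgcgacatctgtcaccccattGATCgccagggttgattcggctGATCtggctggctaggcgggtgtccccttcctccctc
7SK bases 282 to 331, chr6:52995901-52995950: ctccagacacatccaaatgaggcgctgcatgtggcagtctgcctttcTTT
GATC, which reads the same on both strands, occurred 3 times in the first 100 bases, starting at bases 13, 42 and 64 from the 5′ end, and nowhere else in the 331 bases. Of 249762 GENCODE v44 transcripts of at least that length, 22.2% had 1 or more copies in their first 100 bases and 0.287% had 3 or more. A match of these letters is a description of the sequence.

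7SK was counted rarely. The Con libraries held 31, 78 and 20 counts, the CPT libraries 9, 44 and 22, the GTA+5-Aza libraries 15, 6 and 2, and the CPT+GTA+5-Aza libraries 9, 7 and 2. As CPM, the counts scaled to library size after TMM normalization, these were 1.63, 3.72 and 0.972 in Con, and 0.495, 2.16 and 1.20 in CPT. In GTA+5-Aza they were 0.801, 0.301 and 0.113 CPM, and in CPT+GTA+5-Aza 0.475, 0.397 and 0.122 CPM. Every GTA+5-Aza library was below every Con library, as for 16% of all genes. Every CPT+GTA+5-Aza library was below every CPT library, as for 14.4%, by a narrow gap between 0.495 and 0.475 CPM. The 6 primed and 6 unprimed libraries taken as a whole overlapped, since CPT replicate 1 was below GTA+5-Aza replicate 1. Separation of the 6 from the 6 was seen for 8.04% of all genes, higher in primed libraries, and for 6.81%, lower in them. Replicate 2 was the highest library in both unprimed groups.

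The order of the group means was Con at 2.11 ± 1.43 CPM, CPT at 1.29 ± 0.838, GTA+5-Aza at 0.405 ± 0.356 and CPT+GTA+5-Aza at 0.332 ± 0.185 (SD, n = 3 each). Each neighbouring pair in this order overlapped in its libraries. The gene entered the test through the unprimed libraries, which held 5 of the 6 libraries with 10 or more counts.

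**Figure D1:**
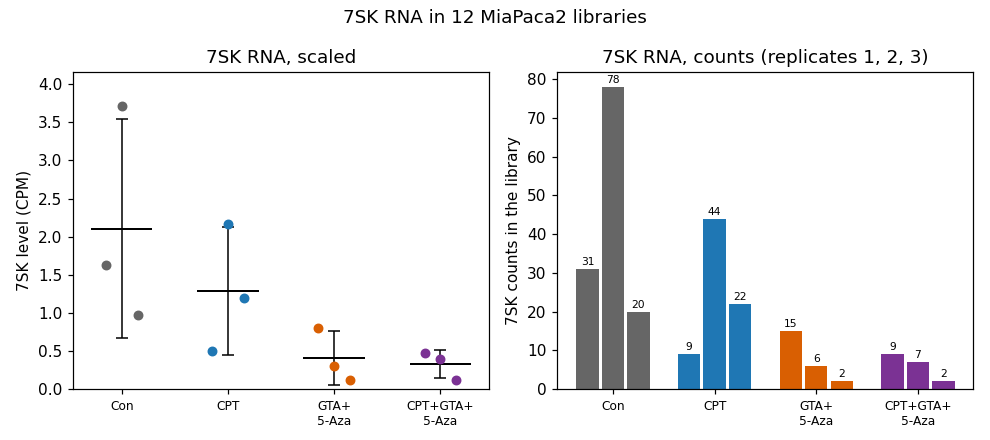
7SK RNA in each library. Left, CPM with points for libraries, a line for the group mean and bars for the SD of 3 libraries; right, the counts themselves, which ran from 20 to 78 in Con and from 2 to 15 in GTA+5-Aza.

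In priming without CPT, edgeR's quasi-likelihood test gave 7SK a log2 fold change of -2.36 (SE 0.66, 95% interval -3.71 to -1.0, adjusted p = 0.0135). Of all genes tested, 99.9% had a higher log2 fold change. This rank is a description and not support, because 7SK had few counts and entered the test through the unprimed libraries. 7SK was the only one of the 8 members called at an adjusted p under 0.05, where 17.5% of all genes were called, 9.95% higher and 7.53% lower. By the study's rule for DEGs, a fold change above 1.5 with an unadjusted P under 0.05, 7SK was likewise the only member, against 6.82% of all genes called higher and 1.62% lower.

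This call rested on few counts and on single libraries. Without Con replicate 2, which had 78 counts, the log2 fold change was -1.66 (adjusted p = 0.142 by edgeR's test). Without GTA+5-Aza replicate 2 it was -2.18 (adjusted p = 0.0502), and without GTA+5-Aza replicate 3, which had 2 counts, it was -1.93 (adjusted p = 0.0782). Without GTA+5-Aza replicate 1 it was -3.29 (adjusted p = 0.00817). The direction was lower in each of the 20 alternative fits, and 16 of the 20 called it. Fits without a CPT or CPT+GTA+5-Aza library kept every library of this comparison and stayed at -2.36, so they say little about the call. The call was lost without Con replicate 2, GTA+5-Aza replicate 2 or 3, or both unprimed replicate 2 libraries (adjusted p = 0.118 by edgeR's test).

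In priming under CPT, the 7SK log2 fold change was -1.92 (SE 0.69, 95% interval -3.35 to -0.50), and edgeR's quasi-likelihood test gave an adjusted p = 0.0562 (unadjusted P = 0.0101). It met the study's DEG rule, as the only member, against 6.93% of all genes called higher and 1.74% lower. In 7 of 19 alternative fits the adjusted p fell under 0.05, with DESeq2's Wald test among them at 0.0343. The 7 include edgeR fits without GTA+5-Aza replicate 1 (0.0496) or 3 (0.0474), libraries outside this comparison. Without CPT replicate 2 the log2 fold change was -1.32 (adjusted p = 0.219 by edgeR's test). The unprimed and primed responses to CPT were -0.70 and -0.27, each with an adjusted p of 1. The former was -0.0074 without Con replicate 2, -0.32 without CPT replicate 1 and -1.31 without CPT replicate 2, and the latter ran from -0.69 without GTA+5-Aza replicate 3 to 0.66 without GTA+5-Aza replicate 1, so neither has a settled size. The interaction of CPT and priming for 7SK was 0.44 (95% interval -1.58 to 2.45, adjusted p = 1), an interval wide enough to hold large differences in either direction.

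**Figure D2:**
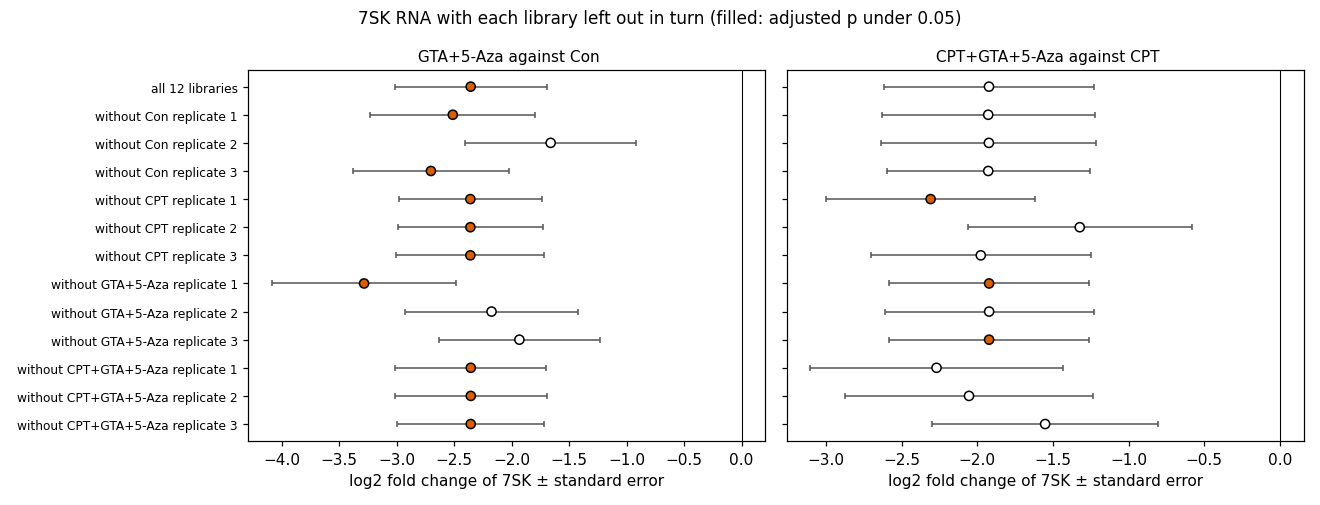
Log2 fold change of 7SK with its standard error, from all 12 libraries and with each library left out in turn, for both priming comparisons; filled points have an adjusted p under 0.05. All points are below 0, and the point without Con replicate 2 is the nearest to 0 on the left at -1.66.

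Listed genes of other short structured RNAs were also counted rarely. Over all 12 libraries together, RNU1-1, RNU4-2 and RNU5A-1, genes of the spliceosomal snRNAs, had 2 counts each, and RNU6-1 had 0. How reads shared between gene copies were counted is not given, and the reason for these low counts was not tested. Whether the libraries were selected for poly(A) is not given in the sources used here, and 7SK is not polyadenylated in its mature form. Whether its counts follow the amount of 7SK in the cells was therefore not tested. In bulk libraries, fewer cells with an RNA and less of it per cell cannot be told apart.

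Other RNAs of this kind were set beside 7SK. Among 16 listed short nuclear or structured RNAs, 11 were found and 1, TERC, was tested. TERC, the template RNA of telomerase, had 10 to 16 counts in Con, 0 to 24 in CPT, 6 to 26 in GTA+5-Aza and 19 to 32 in CPT+GTA+5-Aza, so its libraries overlapped in both priming comparisons. Its log2 fold changes were 0.73 (adjusted p = 0.552) in priming without CPT and 1.61 (adjusted p = 0.136) in priming under CPT by edgeR's test. Without CPT replicate 2, which had 24 TERC counts, the latter was 3.66 (adjusted p = 0.0028), in the direction opposite to that of 7SK. RN7SL1, RN7SL2, RMRP, RPPH1 and SCARNA2 were not matched.

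The whole class was summed without a test. The ranges of unprimed and primed libraries overlapped only through GTA+5-Aza replicate 2 (132.7 CPM) and Con replicate 1 (132.2 CPM). Every CPT+GTA+5-Aza library (119 to 129.4 CPM) was below every CPT library (133 to 147.5 CPM). The class was thus mostly lower in primed libraries, the direction of 7SK, and the reason was not tested. Summed over 4411 identifiers annotated as snRNA, snoRNA, scaRNA or miscellaneous RNA, and without 7SK, the level was 132.2 to 147.5 CPM in unprimed and 118.8 to 132.7 CPM in primed libraries. The 289 annotated 7SK pseudogenes, whose sequence resembles 7SK, had 4.07 to 5.39 CPM in unprimed and 2.96 to 4.57 CPM in primed libraries. The pseudogenes had more counts than 7SK in every library, from 113 against 78 in Con replicate 2 to 81 against 2 in GTA+5-Aza replicate 3. How reads shared between 7SK and its copies were counted is not given in the sources used here, and their part in the 7SK result was not tested. GENCODE v44 also holds a second record, RN7SK, at the same place, which was not analysed here. The 7SK values in this report are those of ENSG00000202198 alone. Whether reads of 7SK were divided between these records or left uncounted was not tested, so these values may hold only a part of the 7SK reads.

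The inhibitors HEXIM1 and HEXIM2 block CDK9 when bound to 7SK, and both mRNAs came from neighbouring genes on chromosome 17, plus strand, HEXIM1 from 45148475 to 45152099 and HEXIM2 from 45160700 to 45170040. HEXIM1 (ENSG00000186834) had 115.6, 119.2 and 116.9 CPM in Con, 106.1, 128.9 and 102.2 in CPT, 120.9, 107.5 and 121.4 in GTA+5-Aza, and 115.9, 116.5 and 118 in CPT+GTA+5-Aza. All 4 groups overlapped, and the extremes of the 12 libraries were both CPT libraries. Its log2 fold change was -0.01 in priming without CPT (95% interval -0.17 to 0.15, adjusted p = 0.962 by edgeR's test). In priming under CPT it was 0.05 (95% interval -0.10 to 0.21, adjusted p = 0.698 by the same test). A change of 1.5-fold lay outside both intervals.

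HEXIM2 (ENSG00000168517) was far less abundant. It had 4.89, 5.86 and 4.52 CPM in Con, 5.61, 5.80 and 3.88 in CPT, 5.40, 4.36 and 7.11 in GTA+5-Aza, and 4.12, 3.58 and 4.23 in CPT+GTA+5-Aza. The CPT+GTA+5-Aza libraries were below all GTA+5-Aza libraries, as for 4.74% of all genes, but overlapped those of CPT. The log2 fold changes were 0.14 in priming without CPT (adjusted p = 0.742), -0.36 in priming under CPT (adjusted p = 0.323) and -0.50 in CPT+GTA+5-Aza against GTA+5-Aza, by edgeR's test (unadjusted P = 0.0396, adjusted p = 1). Unadjusted P values under 0.05 were seen for 2.71% of all genes in that last comparison.

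The ratio of HEXIM1 to HEXIM2 counts was 23.3 ± 2.78 in Con, 22.5 ± 3.74 in CPT, 21.4 ± 3.91 in GTA+5-Aza and 29.5 ± 2.62 in CPT+GTA+5-Aza (SD, n = 3). HEXIM2-AS1, an antisense RNA, overlaps both HEXIM genes and had 10.7 to 17.2 CPM. Without a stated strand setting, reads from HEXIM2 and from its antisense partner cannot be told apart, and the antisense RNA was the more abundant of the pair in each library on the CPM scale. LARP7, MEPCE, CDK9 and CCNT2 also overlap other annotated genes.

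LARP7 and MEPCE are the constant proteins of the particle: LARP7 protects the 3′ end of 7SK and MEPCE methylates its 5′ end. LARP7 (ENSG00000174720; chromosome 4, plus strand, 112637077 to 112657696) had 31.2, 27.3 and 30.1 CPM in Con, 32.4, 27.1 and 33.0 in CPT, 28.9, 33.2 and 29.4 in GTA+5-Aza, and 23.4, 26.5 and 26.0 in CPT+GTA+5-Aza. Every CPT+GTA+5-Aza library was below every CPT library, as for 14.4% of all genes, and below every GTA+5-Aza library, as for 4.74%. The CPT+GTA+5-Aza libraries were also below those of Con, a pattern whose share over all genes was not counted. The log2 fold change was -0.29 against CPT (SE 0.11, unadjusted P = 0.0144, adjusted p = 0.072 by edgeR's test) and -0.27 against GTA+5-Aza (unadjusted P = 0.0196, adjusted p = 1). priming without CPT gave 0.05 (95% interval -0.17 to 0.27, adjusted p = 0.83).

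The LARP7 interaction of CPT and priming was -0.33 (unadjusted P = 0.0393, adjusted p = 1 by edgeR's test), where 2.63% of all genes had an unadjusted P under 0.05. In priming under CPT, LARP7 passed in 3 of 20 alternative fits. These were DESeq2 (adjusted p = 0.0476), edgeR without CPT replicate 2 (adjusted p = 0.0158) and edgeR without both unprimed replicate 2 libraries (adjusted p = 0.0137).

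MEPCE (ENSG00000146834; chromosome 7, plus strand, 100428322 to 100434126) had 108.9, 112.5 and 97.8 CPM in Con, 104.4, 127.5 and 104.4 in CPT, 122.4, 104.4 and 125 in GTA+5-Aza, and 113, 119.6 and 116.3 in CPT+GTA+5-Aza. All groups overlapped in the priming comparisons. Its log2 fold changes were 0.14 in priming without CPT (adjusted p = 0.269) and 0.05 in priming under CPT (adjusted p = 0.732), both by edgeR's test. The highest library was CPT replicate 2, as for HEXIM1.

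CDK9, the kinase of P-TEFb (ENSG00000136807; chromosome 9, plus strand, 127785679 to 127790792), had 44.4, 45.8 and 41.7 CPM in Con, 49.4, 41.5 and 39.2 in CPT, 48.4, 47.0 and 55.3 in GTA+5-Aza, and 43.1, 48.7 and 40.0 in CPT+GTA+5-Aza. The GTA+5-Aza libraries were above all Con libraries, which 18.1% of all genes also were. The log2 fold change was 0.19 (95% interval -0.01 to 0.40, adjusted p = 0.206 by edgeR's test). priming under CPT gave 0.02 (95% interval -0.19 to 0.23, adjusted p = 0.928), with overlapping libraries. The count ratio of HEXIM1, the inhibitor, to CDK9 was 2.67 ± 0.116 in Con, 2.62 ± 0.48 in CPT, 2.33 ± 0.157 in GTA+5-Aza and 2.68 ± 0.28 in CPT+GTA+5-Aza (SD, n = 3).

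The cyclins differed in what passed. CCNT1 encodes cyclin T1, the usual partner of CDK9 (ENSG00000129315; chromosome 12, minus strand, 48688458 to 48716998). It had 66.8, 48.3 and 66.5 CPM in Con, 55.2, 52.5 and 67.0 in CPT, 54.4, 54.1 and 53.1 in GTA+5-Aza, and 58, 55.1 and 53.0 in CPT+GTA+5-Aza. Con replicate 2 was the lowest of the 12 libraries, and Con replicates 1 and 3 were above all primed libraries. The log2 fold change in priming without CPT was -0.17 (adjusted p = 0.307), and without Con replicate 2 it was -0.31 (adjusted p = 0.0323), both by edgeR's test. In priming under CPT it was -0.07 (adjusted p = 0.711).

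CCNT2 encodes cyclin T2, the alternative partner (ENSG00000082258; chromosome 2, plus strand, 134918235 to 134959342). It had 74.2, 59 and 60.6 CPM in Con, 67.7, 61.9 and 70.9 in CPT, 55.0, 61.2 and 54.8 in GTA+5-Aza, and 56.0, 57.3 and 51.6 in CPT+GTA+5-Aza. Every CPT+GTA+5-Aza library was below every CPT library, as for 14.4% of all genes, whereas GTA+5-Aza overlapped Con through its replicate 2. In priming under CPT the log2 fold change was -0.28 (SE 0.09, 95% interval -0.47 to -0.09, adjusted p = 0.0322 by edgeR's test). In priming without CPT it was -0.18 (95% interval -0.36 to 0.01, adjusted p = 0.186).

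CCNT2 was the 1 member of 8 called in priming under CPT, where 17% of all genes were called, 9.57% higher and 7.39% lower. That share of members is near the background. No member was called in the same direction in both priming comparisons, while 6.73% of all genes were called higher and 4.95% lower in both. The call was lost with scaling by library size alone (adjusted p = 0.0689), without CPT replicate 1 (0.089), without CPT replicate 3 (0.101), and without CPT+GTA+5-Aza replicate 1 (0.0718), replicate 2 (0.056) or replicate 3 (0.147). The interaction of CPT and priming for CCNT2 was -0.10 (95% interval -0.36 to 0.16, adjusted p = 1 by edgeR's test), so a difference between the priming comparisons was not shown. The ratio of CCNT1 to CCNT2 counts was 0.939 ± 0.143 in Con, 0.870 ± 0.068 in CPT, 0.947 ± 0.055 in GTA+5-Aza and 1.01 ± 0.041 in CPT+GTA+5-Aza (SD, n = 3).

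**Figure D3:**
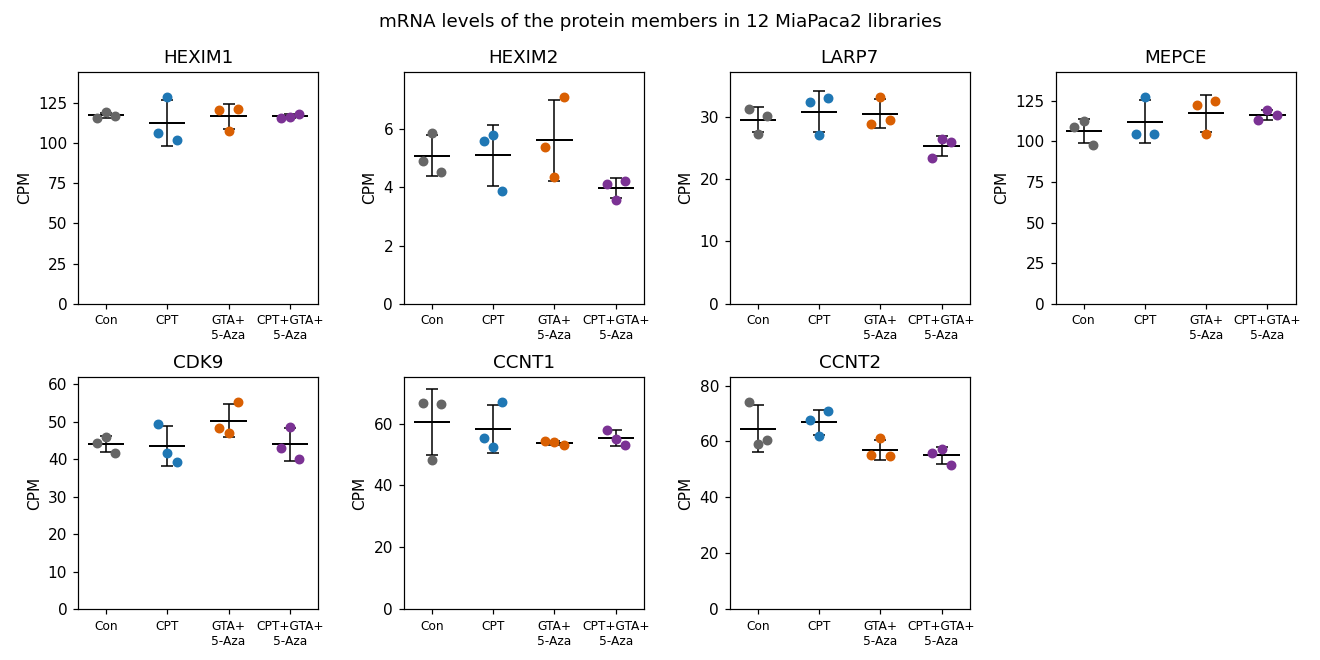
CPM of the 7 protein members' mRNAs in each library (points), with the group mean (line) and SD of 3 libraries (bars); each axis starts at 0. LARP7 in CPT+GTA+5-Aza, at 23.4 to 26.5 CPM, is below CPT and GTA+5-Aza, as 14.4% and 4.74% of all genes were. HEXIM1 stays between 102.2 and 128.9 CPM throughout.

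Non-overlap of libraries was counted over the 8 members. In priming without CPT, 7SK was lower and CDK9 higher, where 16% and 18.1% of all genes were. In priming under CPT, 7SK, LARP7 and CCNT2 were lower (14.4% of all genes) and none was higher (16.4%). In CPT+GTA+5-Aza against GTA+5-Aza, HEXIM2 and LARP7 were lower (4.74% of all genes), beside 4.42% higher, and in CPT against Con no member was separated (3.81% of all genes higher, 4.21% lower). The priming comparisons have no library in common.

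An unadjusted P under 0.05 was seen for 1 member (7SK) in priming without CPT, beside 29.4% of all genes, and for 3 (7SK, LARP7 and CCNT2) in priming under CPT, beside 29.3%. The median log2 fold change over the 8 members was 0.02 in priming without CPT, beside 0.01 over all genes, and -0.18 in priming under CPT, beside 0.01 over all genes. For CPT against Con, 0 of 8 members and 0% of all genes were called by edgeR's test, and 0 members had an unadjusted P under 0.05, beside 4.28% of all genes. For CPT+GTA+5-Aza against GTA+5-Aza, 0 of 8 and 0% were called. There, 2 members, HEXIM2 and LARP7, had an unadjusted P under 0.05, beside 2.71% of all genes. DESeq2 also called 0 members in both. Of all 17123 genes it called 3 higher and 1 lower in the former, and 1 higher and 0 lower in the latter. The interaction called 0 of 8 members and 0% of all genes. LARP7 was the 1 member with an unadjusted P under 0.05 for the interaction, beside 2.63% of all genes.

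**Figure D4:**
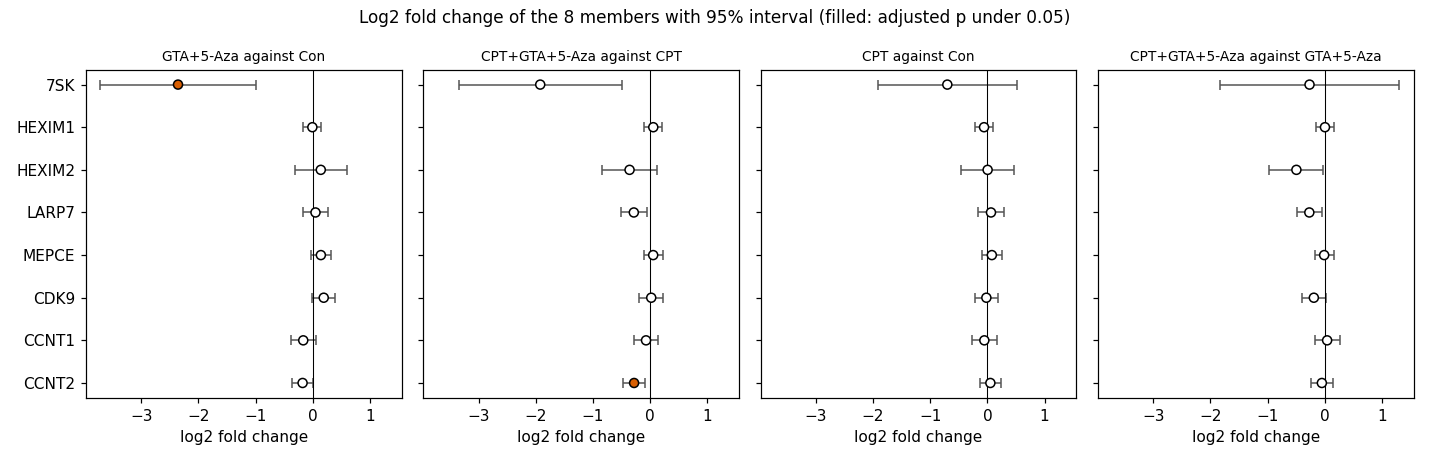
Log2 fold change of the 8 members with 95% intervals in the priming comparisons and the CPT comparisons; filled points have an adjusted p under 0.05. 7SK in GTA+5-Aza against Con (-2.36) and CCNT2 in CPT+GTA+5-Aza against CPT (-0.28) are the filled points, and the 7SK intervals are the widest.

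Levels of different members were compared per kilobase of merged exons in Con. HEXIM1 had 32.4 ± 0.51 CPM per kb and MEPCE 31.5 ± 2.27, and their libraries overlapped. CDK9 followed at 14.6 ± 0.69, separate from its neighbours. CCNT1 (8.21 ± 1.44), CCNT2 (7.11 ± 0.92) and 7SK (6.36 ± 4.33) overlapped, and 7SK also overlapped LARP7 (3.65 ± 0.25), which was above HEXIM2 (2.54 ± 0.34). 7SK is known as one of the more abundant RNAs of the nucleus, and the reason for its place in this order was not tested. In CPT+GTA+5-Aza, 7SK was last at 1.00 ± 0.56 CPM per kb, below all libraries of each protein member (SD, n = 3 throughout).

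The other genes of the pathway were taken from lists written by hand. Their counts stand beside shares of all genes called of 9.95% higher and 7.53% lower in priming without CPT, and 9.57% higher and 7.39% lower in priming under CPT. The median log2 fold change of all genes was 0.01 in each. Proteins that bind 7SK outside the P-TEFb particle were lower after priming where they passed. In priming without CPT, 0 of 7 tested rose and 4 fell (HNRNPA1, HNRNPA2B1, SYNCRIP and DHX9), and in priming under CPT 3 of 7 fell, where 7.53% and 7.39% of all genes fell. HNRNPA1, which takes up 7SK released from P-TEFb, went from 1023 ± 61.2 CPM in Con to 798.4 ± 16.5 in GTA+5-Aza, a log2 fold change of -0.36 (adjusted p = 9.71e-05 by edgeR's test). SYNCRIP, an RNA-binding protein also called hnRNP Q, fell by 0.30 (adjusted p = 0.00045) and by 0.34 (adjusted p = 9.27e-05) on the log2 scale in the respective comparisons. The medians of the list were -0.15 and -0.14.

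Factors that release P-TEFb from 7SK were mixed. In priming without CPT, PPP1CA rose and DDX21 fell, and in priming under CPT, DDX21 and PPM1B fell. DDX21, an RNA helicase with nucleolar and promoter roles, went from 713.3 ± 12.4 CPM in Con to 499.3 ± 26.0 in GTA+5-Aza and from 717.7 ± 45.0 in CPT to 516.3 ± 10.6 in CPT+GTA+5-Aza (SD, n = 3). It fell by 0.51 (adjusted p = 1.59e-07) and by 0.48 (adjusted p = 4.76e-07) on the log2 scale by edgeR's test, and passed in all 20 alternative fits of each. PPP1CA, a phosphatase catalytic subunit, rose by 0.18 on the log2 scale in priming without CPT (adjusted p = 0.0369) and was 0.16 in the other (adjusted p = 0.0565). PPM1B, a phosphatase of the metal-dependent family, fell by 0.29 in priming under CPT (adjusted p = 0.0335). The PPP1CA call was held in 10 of 20 alternative fits, and was lost with no filter on low counts (adjusted p = 0.0598 by edgeR's test). Each library of Con and CPT+GTA+5-Aza, CPT replicate 1 and GTA+5-Aza replicates 1 and 3 also took it away when left out, with an adjusted p of up to 0.166 by the same test.

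Of the BET proteins, which read acetylated histones, BRD3 rose in both comparisons, by 0.31 (adjusted p = 0.0205) and 0.37 (adjusted p = 0.00626) on the log2 scale by edgeR's test, and BRD2 was 0.00 and 0.03 without passing. BRD3 no longer passed in priming without CPT when Con replicate 2 (adjusted p = 0.104), Con replicate 3 (0.0788) or GTA+5-Aza replicate 3 (0.143) was left out, nor in priming under CPT without CPT replicate 1 (0.0579). The super elongation complex carries active P-TEFb. Of its 11 listed genes 8 were tested, and 0 passed in priming without CPT, while AFF4, its scaffold, fell by 0.18 (adjusted p = 0.0451) in priming under CPT. Against 17.5% and 17% of all genes called, these counts are near the background. The AFF4 call was held in 10 of 20 alternative fits. It was lost by edgeR's test with scaling by library size alone (adjusted p = 0.128), with no filter (0.0653) and with only 2 groups in the fit (0.0745). Leaving out any CPT+GTA+5-Aza library other than replicate 1, CPT replicate 1 or 3, Con replicate 3, or GTA+5-Aza replicate 1 or 2 also lost it (adjusted p of up to 0.169). ELL2, an elongation factor, was 0.44 (adjusted p = 0.202) and 0.62 (adjusted p = 0.0665), and AFF1, the other scaffold, was 0.27 in both without passing.

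The pausing complexes NELF and DSIF, which are substrates of P-TEFb, had 0 of 6 genes called by edgeR's test in either comparison, with medians of 0.00 and -0.10. In both comparisons 0 of the 6 reached an unadjusted P under 0.05. Over all genes 17.5% and 17% were called and 29.4% and 29.3% had such a P, so with 6 genes a count of 0 is near the background. None was called in any of the 20 alternative fits of each, DESeq2 included. SUPT5H, the DSIF subunit that P-TEFb phosphorylates, was 0.05 (adjusted p = 0.656) and 0.03 (adjusted p = 0.812). Among 7 genes of the PAF1 complex and SPT6, RTF1, an elongation factor, fell by 0.29 in each comparison (adjusted p = 0.00518 and 0.00498) and the rest did not pass, which is likewise near the background. The RTF1 calls were lost without Con replicate 3 (adjusted p = 0.0504) and without CPT+GTA+5-Aza replicate 3 (0.0566), respectively. CDC73 was -0.13 and -0.07.

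Other kinases of the transcription cycle were lower where they passed. Of 13 kinases and cyclins, 0 rose and 3 fell in each comparison, namely CDK7, CCNH and CDK12, with medians of -0.22 and -0.15. Of all genes, 7.53% and 7.39% fell. CDK12, which phosphorylates the elongating polymerase, went from 205.9 ± 2.78 CPM in Con to 150.4 ± 8.58 in GTA+5-Aza and from 204.6 ± 2.65 in CPT to 155.5 ± 6.94 in CPT+GTA+5-Aza (SD, n = 3). It fell by 0.45 (adjusted p = 5.44e-06) and 0.40 (adjusted p = 3.26e-05) on the log2 scale by edgeR's test. CDK7 and its cyclin CCNH, the kinase pair of TFIIH, fell by 0.37 and 0.35 in priming without CPT (adjusted p = 0.0118 and 0.016). CDK7 did not pass there without GTA+5-Aza replicate 1 (0.0514) or 3 (0.102), nor in priming under CPT without CPT replicate 3 (0.0537) or without any 1 CPT+GTA+5-Aza library (0.0512 to 0.0669).

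Short-lived transcripts whose synthesis depends on P-TEFb were higher where they passed. Of 10 tested, 5 rose in priming without CPT and 4 in priming under CPT, and 0 fell, with medians of 0.29 and 0.43. Of all genes, 9.95% and 9.57% rose. EGR1, an immediate early transcription factor, had 10.9 ± 1.69 CPM in Con, 14.0 ± 1.13 in CPT, 25.1 ± 4.16 in GTA+5-Aza and 30.1 ± 1.33 in CPT+GTA+5-Aza (SD, n = 3), a rise of 1.21 and 1.10 on the log2 scale (adjusted p = 6.31e-07 and 1.73e-06 by edgeR's test). IER3, an immediate early stress gene, had 4.90 ± 0.770, 5.77 ± 1.06, 13.3 ± 1.17 and 14.3 ± 0.373 CPM in the same order, a rise of 1.44 and 1.31 (adjusted p = 9.72e-07 and 3.52e-06). JUNB, an AP-1 subunit, rose by 0.88 and 0.99 (adjusted p = 0.000399 and 9.88e-05). IER2 rose in both, and MCL1, an antiapoptotic gene, rose in priming without CPT only by the call (0.19, adjusted p = 0.0177, and 0.10, adjusted p = 0.235), while the interaction of CPT and priming for MCL1 was -0.09 (adjusted p = 1 by edgeR's test). MYC, often used as a readout of P-TEFb inhibition, was -0.15 (adjusted p = 0.109; 0.0427 without GTA+5-Aza replicate 3) and -0.02 (adjusted p = 0.884). These RNA levels do not measure P-TEFb activity, and their relation to 7SK was not tested. In the CPT comparisons and the interaction, 0 genes of these lists were called by edgeR's test, and at most 1 gene of a list had an unadjusted P under 0.05.

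**Figure D5:**
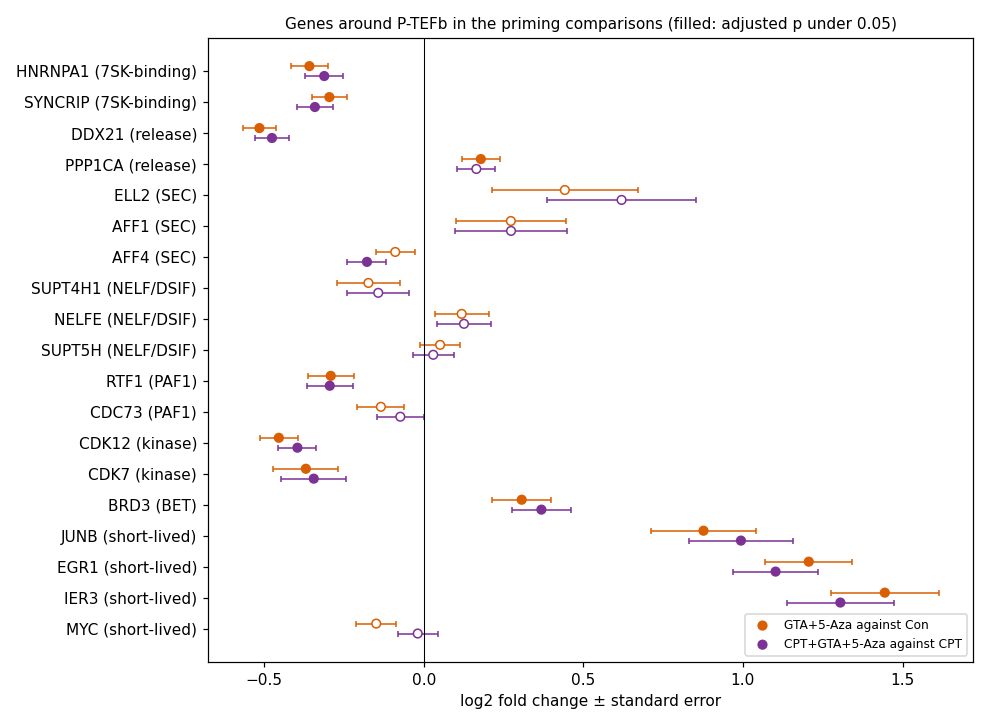
Log2 fold change with standard error of the pathway genes named by rule, in priming without CPT and priming under CPT; filled points have an adjusted p under 0.05. DDX21, CDK12, CDK7, HNRNPA1, SYNCRIP and RTF1 are filled below 0 in both, and JUNB, EGR1, IER3 and BRD3 are filled above 0 in both.

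Genes with a pattern like that of a member were sought by Pearson's r of log2 CPM over the 12 libraries, among 10692 genes with a mean of 5 CPM or more for 7SK and 10691 for HEXIM1. Nearest to 7SK were GTDC1 (0.91), NAP1L4 (0.89), SOGA1 (0.88), ADI1 (0.88) and PLEKHN1 (0.88). Nearest to HEXIM1 were SLC9A3R1-AS1 (0.94), MRPL20-AS1 (0.93), HIF1A-AS1 (0.92), SENP3 (0.91) and CDC37 (0.90). The values describe 12 points that share groups and libraries. Since the HEXIM1 groups did not differ, its pattern is that of single libraries.

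Total counts ran from 16162490 to 21224665 per library. The CPT libraries were less alike than the other groups, with replicates 2 and 3 far apart on the second principal component. The cells expressed KRT8 at 1410 to 1740 CPM, KRT18 at 644 to 854 CPM and VIM at 5310 to 6590 CPM, whereas EPCAM and CDH1 had at most 1 and 4 counts. The immune, endothelial, acinar and islet markers CD3E, PECAM1, PRSS1, CPA1, INS and GCG were at 0 in all libraries. PTPRC had at most 4, CD68 6, VWF 11, DCN 2 and COL1A1 44 counts, while COL3A1 had 84.8 to 125 CPM.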

How the data were processed

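RNA-seq of 12 MiaPaca2 libraries was used. The authors isolated total RNA with TRIzol, sequenced 150 bp paired-end reads, used Trim Galore for trimming and HISAT2 2.2.1 for alignment to GRCh38, and counted genes with HTSeq. The deposited files hold raw counts, with no normalization. The annotation release, strand setting and treatment of shared reads are not given in the sources used here. The study describes its samples as independent, 3 per group, without saying whether they were separate cultures, so p-values measure the spread between these samples.

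Counts were fitted with edgeR 4.0.16 (R 4.3.3; TMM scaling, filterByExpr, glmQLFit and glmQLFTest on 4 groups in 1 fit, common dispersion 0.0101), with Benjamini-Hochberg adjustment over 17123 genes. DESeq2 1.42.0 was an alternative. The SE of a log2 fold change was its size divided by the square root of F. CPM used TMM-scaled library sizes. Symbols, positions, exon lengths and sequences came from GENCODE 44, which held 52181 of the 63677 identifiers. Chi-square values per degree of freedom between replicates of a group were 3.88 to 16.6, above the value near 1 that a repeated library would give. The fit was tested on simulated counts.

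The members and lists were chosen with earlier results of these data known. Named genes were all members; from each list, genes with an adjusted p under 0.05 and a fold above 1.5 in a priming comparison, or else up to 2 genes with the smallest p; AFF4, SUPT5H, MYC, RN7SL1, RMRP and RPPH1; and the 5 genes nearest to 7SK and to HEXIM1. Genes named beyond this rule (HNRNPA2B1, DHX9, PPM1B, BRD2, CCNH, IER2, MCL1, RN7SL2, SCARNA2 and the RNU genes) were chosen after their values were seen. The alternatives were other scalings, other filters, DESeq2, only 2 groups in the fit, a replicate block and leaving out each library. Leaving out both unprimed replicate 2 libraries and recomputing the pathway genes were chosen after seeing the data. A result of 1 further gene is not reported here.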

Additional observations from a re-analysis of the deposited data

How the results depend on the processing

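The count of members called in priming without CPT was 1 under each scaling, filter, tool, 2-group and block setting. It ran from 0 to 1 with single libraries left out, where without Con replicate 2 the member called was CCNT1 and not 7SK, and was 2 (CCNT1 and CCNT2) without both unprimed replicate 2 libraries. In priming under CPT the count of 1 became 0 with scaling by library size alone, 2 with no filter, 2 with a filter of CPM above 1 in at least 3 libraries, 3 with DESeq2 and 2 without both unprimed replicate 2 libraries. It ran from 0 to 2 with single libraries left out. The 2-group fit could not give a value for 7SK there, because the filter removed it. In the CPT comparisons and the interaction 0 members were called in each setting run. The causes were not tested beyond the libraries named.

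Same-numbered samples had correlations of -0.45 to 0.489 in their deviations from group means, and the replicate numbers were not taken to pair the samples. The highest was between Con replicate 2 and CPT replicate 2, the libraries with the most 7SK in each unprimed group. Differently numbered samples were not compared, so these values cannot show that pairing is absent. With the replicate block, 2 members (7SK and CCNT2) passed in priming under CPT, and 7SK alone in priming without CPT.

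Of 790 recomputed log2 fold changes of the members, 764 kept their direction or moved across 0 within 1 SE of a value that was not called (39 of them), and kept their side of the threshold; 10 lost it, 13 gained it and 3 reversed. The reversed values, none called, were CCNT1 in priming under CPT without CPT replicate 3 (0.036, with a range of -0.148 to 0.036 over single libraries left out), MEPCE in CPT against Con without CPT replicate 2 (-0.026, range -0.026 to 0.126) and 7SK in CPT+GTA+5-Aza against GTA+5-Aza without GTA+5-Aza replicate 1 (0.66, range -0.69 to 0.66). Over the 20 alternative fits, the number of kinases and cyclins that fell ran from 1 to 6 (reported as 3) in priming without CPT and from 1 to 5 (reported as 3) in priming under CPT, and that of 7SK-binding proteins from 2 to 4 in each. The short-lived transcripts that rose numbered 4 to 5 in each. Over all genes, scaling by library size alone moved the calls in priming without CPT from 1703 higher and 1290 lower to 2013 and 908, and in priming under CPT from 1639 and 1265 to 1986 and 891. Depth limits 7SK most, with 2 to 78 counts a library.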
